A study of Mus musculus with 7 samples.

Results

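The genes described here belong to the Notch pathway and to the enzymes that place sugars on Notch receptors: 4 receptors, 5 ligands or ligand-like proteins, 4 proteins of the nuclear complex, 5 target genes, 7 glycosyltransferases, 4 subunits of gamma-secretase, and Numb with 4 deltex proteins. They are 34 of the 49671 genes in the deposited count table, and all 34 were among the 17144 genes with enough counts to be tested. The members were chosen by pathway membership, and the list was selected on measured values in part: the xylosyltransferase gene Gxylt2 ranked 2 among the 17144 genes by its p in the comparison of injured and uninjured mice. That unadjusted p was 8.05e-05 in edgeR's quasi-likelihood test, and the adjusted p was 0.423. Every value below that compares the groups comes from that same comparison, so these values are given as a description and no test of the list is made.

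One group of mice, of wild-type genotype, had a traumatic brain injury (TBI) set by controlled cortical impact, a standardised blow to the cortex, and gave femurs 3 days later. The control group, also wild type, was uninjured. Messenger RNA of the whole crushed femur was sequenced in 4 TBI libraries and 3 control libraries, with 15461528 to 21783534 counts each. The labels do not say whether the control mice had surgery, nor that each library came from a separate mouse, so any p-value here reflects variation among these 7 libraries, which may be technical; the sources used here give no age, sex or strain. A crushed femur holds bone, cartilage, marrow, vessels and attached muscle, and the 15 muscle markers alone took 2.78% to 11.4% of counts in TBI libraries and 2.29% to 6.99% in control libraries. None of the markers tested for any cell type was at 0 in any library, osteoblast and chondrocyte markers included. Fewer cells of a type and less RNA per cell cannot be told apart in such bulk samples.

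Notch receptors are single-pass membrane proteins that are activated by ligands on a neighbouring cell. Ligand binding lets an ADAM protease and then gamma-secretase cut the receptor, and the freed intracellular part joins Rbpj and a Mastermind protein on DNA to switch on targets of the Hes and Hey families. The outer part of the receptor is made of EGF-like repeats that carry O-linked fucose, which the Fringe enzymes lengthen, and O-linked glucose, which xylosyltransferases lengthen; both kinds of sugar tune signalling. In mouse bone, Notch in the osteoblast lineage restrains maturation, and Notch in endothelial cells shapes the vessels that accompany bone formation.

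For 31 of the 34 members the TBI libraries overlapped with the control libraries; the 3 without overlap were Gxylt2, Xxylt1 and Numb, beside 8.04% of all genes tested. Estimates were lower in TBI for 21 of the 34 members and higher for 13. Their median log2 fold change (TBI minus control) was −0.092, with quartiles of −0.18 and 0.062. Over all 17144 genes tested, 45.6% were lower and the median was 0.026. With upper quartile scaling 25 members were lower, and with RLE scaling 21. In 26 of the 34 members, the difference between the group means of log2 CPM (CPM being a gene's counts relative to its TMM-scaled library size) was smaller than the pooled SD between libraries of a group. No member passed an adjusted p of 0.05 in edgeR, and neither did any gene of the table (0 of 17144, 0%); at an unadjusted p under 0.05 there were 4 members, against 7.34% of all genes (1259 genes). Of the 4, 3 were lower and 1 was higher, against 4.97% of all genes lower and 2.37% higher. DESeq2 called 84 of 14821 genes (0.567%), among them Gxylt2 and no other member. The contrast had served to choose the list, and nothing is read from these counts.

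**Figure D1:**
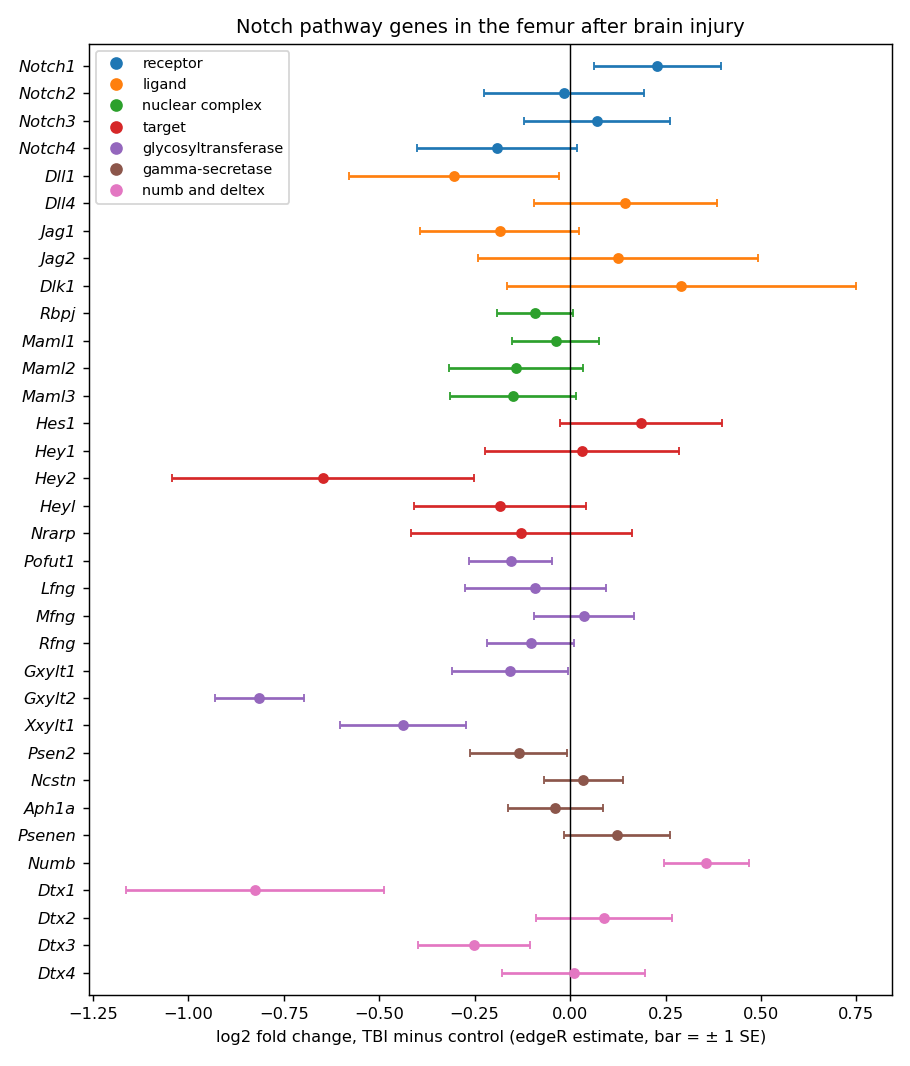
Log2 fold change of each of the 34 members, TBI minus control, on the horizontal axis, with bars of 1 SE from edgeR and colours for the role of each gene. The points of Gxylt2 (−0.81), Dtx1 (−0.83), Hey2 (−0.65) and Xxylt1 (−0.44) lie furthest to the left and that of Numb (0.36) furthest to the right, while most others lie near 0.

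The xylose branch of Notch glycosylation holds the gene on which the list was chosen. Gxylt2 encodes one of 2 glucoside xylosyltransferases that add the first xylose to the O-linked glucose of an EGF repeat. It measured 24.2, 19.0, 20.7 and 21.1 CPM in TBI 1 to 4, against 35.7, 38.6 and 37.9 CPM in controls 1 to 3. All 4 TBI libraries lay below all 3 controls, and the lowest control stood well above the highest TBI library. The means were 21.2 ± 2.15 CPM after TBI (SD, n = 4) and 37.4 ± 1.53 CPM in controls (SD, n = 3), a log2 fold change of −0.81 ± 0.12 (SE). The gene (ENSMUSG00000030074, protein coding) lies on chromosome 6 of GRCm38 at 100704734 to 100810913 on the plus strand, and none of its exons overlaps another annotated gene.

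Gxylt1, which encodes the other enzyme of the same step, measured 38.3, 34.1, 27.6 and 29.6 CPM in TBI 1 to 4, against 42.1, 32.9 and 33.3 CPM in controls 1 to 3. Its groups overlapped and the estimate was −0.16 ± 0.15 (SE). On a scale per exon length (TPM, a gene's counts per exonic base relative to the sum of that quantity over all genes), Gxylt2 supplied 33.2%, 30.6%, 37.3% and 36% of the summed Gxylt1 and Gxylt2 level in TBI 1 to 4, against 40.1%, 48.1% and 47.3% in controls 1 to 3. The mean share was 34.3% ± 2.99 after TBI (SD, n = 4) and 45.2% ± 4.42 in controls (SD, n = 3), without overlap. The share contains Gxylt2, on which the list was chosen, and is no separate evidence.

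Xxylt1, whose enzyme adds the second xylose onto the first, also had groups that did not overlap. It measured 7.95, 7.02, 8.03 and 5.80 CPM in TBI 1 to 4, against 9.57, 10.3 and 9.44 CPM in controls 1 to 3. TBI 4 was the lowest, and the gap between the groups was narrower than for Gxylt2. The means were 7.20 ± 1.04 CPM after TBI (SD, n = 4) and 9.76 ± 0.452 CPM in controls (SD, n = 3), a log2 fold change of −0.44 ± 0.16 (SE). The gene lies on chromosome 16 at 30955144 to 31081432 on the minus strand. Gxylt2 and Xxylt1 were 2 of the 34 members with all TBI libraries below all controls, an arrangement seen in 5.38% of all genes tested; Numb, described further on, was the 1 member with the opposite arrangement, seen in 2.66% of all genes.

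The 250 bases before the RefSeq start of the 3 xylosyltransferase genes (GRCm38.p6) are shown as a description only. Each is written 5′ to 3′ on the gene's own strand. Capitals mark the GC box GGGCGG (or its reverse complement CCGCCC), the core motif of Sp-family factors. Gxylt2 lies at chr6:100704484-100704733 (plus strand), Gxylt1 at chr15:93275180-93275429 (minus strand) and Xxylt1 at chr16:31081433-31081682 (minus strand).
Gxylt2: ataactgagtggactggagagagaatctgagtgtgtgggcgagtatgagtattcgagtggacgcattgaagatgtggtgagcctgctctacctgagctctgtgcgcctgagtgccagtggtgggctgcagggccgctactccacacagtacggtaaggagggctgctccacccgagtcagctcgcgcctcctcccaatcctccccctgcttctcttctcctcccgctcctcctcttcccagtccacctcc
Gxylt1: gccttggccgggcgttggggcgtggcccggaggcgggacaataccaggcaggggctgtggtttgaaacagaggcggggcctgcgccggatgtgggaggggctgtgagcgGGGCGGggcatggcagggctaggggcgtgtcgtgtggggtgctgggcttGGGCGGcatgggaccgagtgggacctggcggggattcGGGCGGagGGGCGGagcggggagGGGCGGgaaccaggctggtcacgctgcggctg
Xxylt1: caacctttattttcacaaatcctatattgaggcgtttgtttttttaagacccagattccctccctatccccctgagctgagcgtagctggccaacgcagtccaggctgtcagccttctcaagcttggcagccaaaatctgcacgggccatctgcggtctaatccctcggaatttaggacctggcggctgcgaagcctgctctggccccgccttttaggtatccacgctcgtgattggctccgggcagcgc
The Gxylt1 window held 5 GC boxes, while the windows of Gxylt2 and Xxylt1 held 0 each; G and C made up 74% of the Gxylt1 window, 59.6% of that of Gxylt2 and 55.2% of that of Xxylt1. A GC box on either strand stood in 32.7% of all 32851 promoter windows of this length, and in 17 of the 35 windows of the 28 members that the table holds. These are matches of letters, for a motif chosen after the values were seen, and do not show that a factor binds. The part of these sequences in the mRNA levels was not tested.

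Bone and cartilage marker levels differed between the groups, as did Gxylt2 and Xxylt1. The 13 osteoblast markers summed to 11390 to 15970 CPM in TBI libraries and 17160 to 29440 CPM in control libraries, and the 12 chondrocyte markers to 2672 to 3300 CPM in TBI libraries and 4185 to 5302 CPM in control libraries. All 13 and all 12 had lower estimates, and neither summed level overlapped between groups. With the osteoblast list mean as a covariate, the Gxylt2 estimate was −0.76 and that of Xxylt1 −0.18; with the chondrocyte list mean, a covariate added after the data were seen, they were −0.45 and −0.40. Both list means separate the groups, so in those fits the injury and the marker level can hardly be told apart. The 13 erythroid markers, 12 of them lower in estimate and summing to 24530 to 34080 CPM in TBI libraries and 46200 to 53280 CPM in control libraries, likewise did not overlap, and with their mean as a covariate Gxylt2 stood at −0.75 and Xxylt1 at −0.18.

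**Figure D2:**
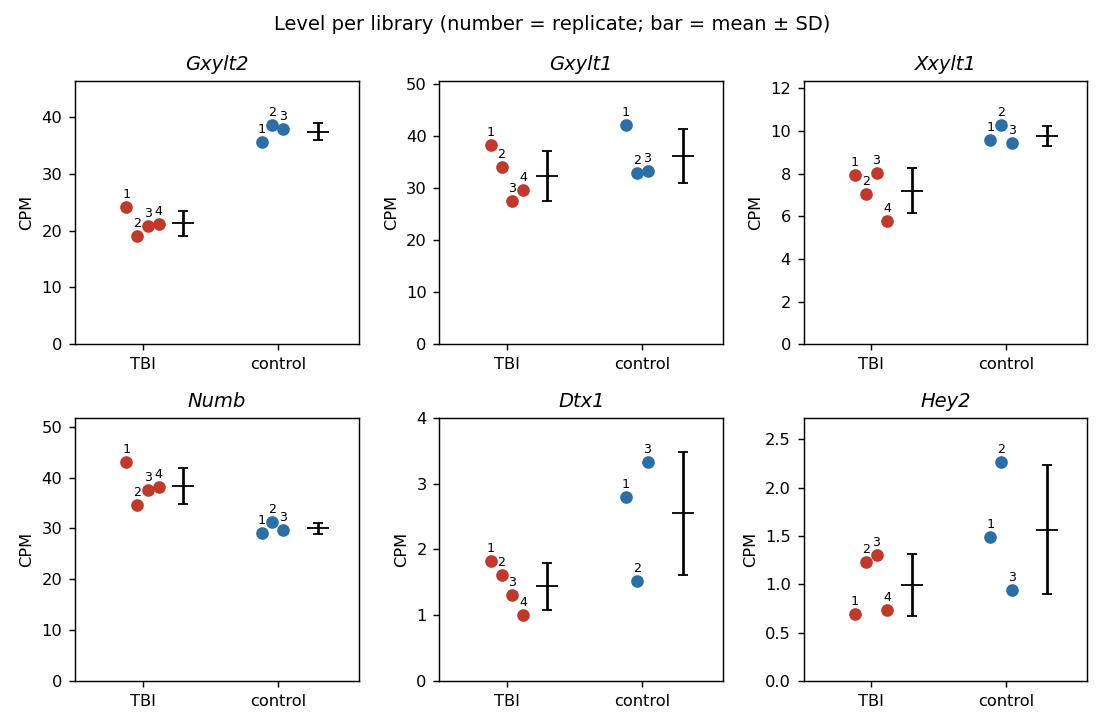
CPM of 6 members in each library, with TBI at the left and control at the right of each panel; numbers are replicates, and the bar beside each group is its mean ± SD (n = 4 TBI, n = 3 control). Gxylt2 (19.0 to 24.2 CPM in TBI, 35.7 to 38.6 CPM in controls), Xxylt1 and Numb show groups without overlap, while Gxylt1, Dtx1 and Hey2 overlap.

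The remaining enzymes act on the fucose branch, and their groups overlapped. Pofut1, which attaches O-fucose to the EGF repeats, measured 46.6 ± 2.97 CPM after TBI (SD, n = 4) and 51.9 ± 4.59 CPM in controls (SD, n = 3), at a log2 fold change of −0.16 ± 0.11 (SE). The 3 Fringe enzymes add N-acetylglucosamine to that fucose, which changes how well a receptor answers Delta and Jagged ligands. Their estimates were −0.091 ± 0.18 for Lfng, 0.037 ± 0.13 for Mfng and −0.10 ± 0.11 for Rfng. Rfng measured 22.85, 26.5, 27.2 and 27.0 CPM in TBI 1 to 4, against 26.5, 29.6 and 27.3 CPM in controls 1 to 3, with TBI 1 apart and the rest overlapping. Lfng ranged from 20.8 to 28.9 CPM in TBI libraries and from 19.4 to 30.6 CPM in control libraries. Per exon length, Rfng averaged 28.7 TPM over the 7 libraries and Lfng 27.3 TPM, a pair whose ranges overlapped (25.3 to 32.3 and 19.4 to 34.4 TPM), and Mfng 10.8 TPM, below both in every library. Rfng made up 43% ± 4.43 of the summed Fringe level after TBI (SD, n = 4) and 44% ± 4.17 in controls (SD, n = 3). Of the 7 glycosyltransferase genes, 6 had lower estimates with TMM or RLE scaling and all 7 with upper quartile scaling, at a median of −0.16.

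The 4 receptors differed by less than the spread between libraries. Notch1 measured 54.4, 40.0, 35.0 and 47.4 CPM in TBI 1 to 4, against 42.2, 34.04 and 36.9 CPM in controls 1 to 3, at a log2 fold change of 0.23 ± 0.17 (SE). Notch2 measured 100.3, 73.2, 50.2 and 65.7 CPM in TBI 1 to 4, against 75.6, 73.5 and 70.3 CPM in controls 1 to 3, at −0.016 ± 0.21. Both genes were highest in TBI 1, and the 4 TBI libraries spread so widely for Notch2 that they reached beyond the controls on either side. Notch3, a receptor of smooth muscle cells and pericytes around vessels, stood at 0.070 ± 0.19, and Notch4, a receptor of endothelial cells, at −0.19 ± 0.21. Notch4 ranged from 15.2 to 27.1 CPM in TBI libraries and from 21.4 to 30.0 CPM in control libraries.

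Per exon length, Notch2 averaged 18.4 TPM over the 7 libraries and Notch3 15.5 TPM, with ranges that overlapped, followed by Notch1 (7.86 TPM) and Notch4 (7.62 TPM), whose ranges also overlapped. The share of Notch2 in the summed level of the 4 receptors was 47.4%, 38%, 25.8% and 33.1% in TBI 1 to 4, against 41.1%, 35.6% and 35.4% in controls 1 to 3. The 14 neutrophil markers, 1 of them lower in estimate, summed to 13700, 9052, 2683 and 7365 CPM in TBI 1 to 4, and to 5697, 3890 and 3797 CPM in controls 1 to 3. TBI 1 was highest and TBI 3 lowest in both measures, but TBI 4, with a neutrophil level above all controls, had a smaller Notch2 share than all controls. The part of the marrow markers in the Notch2 level was not tested.

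**Figure D3:**
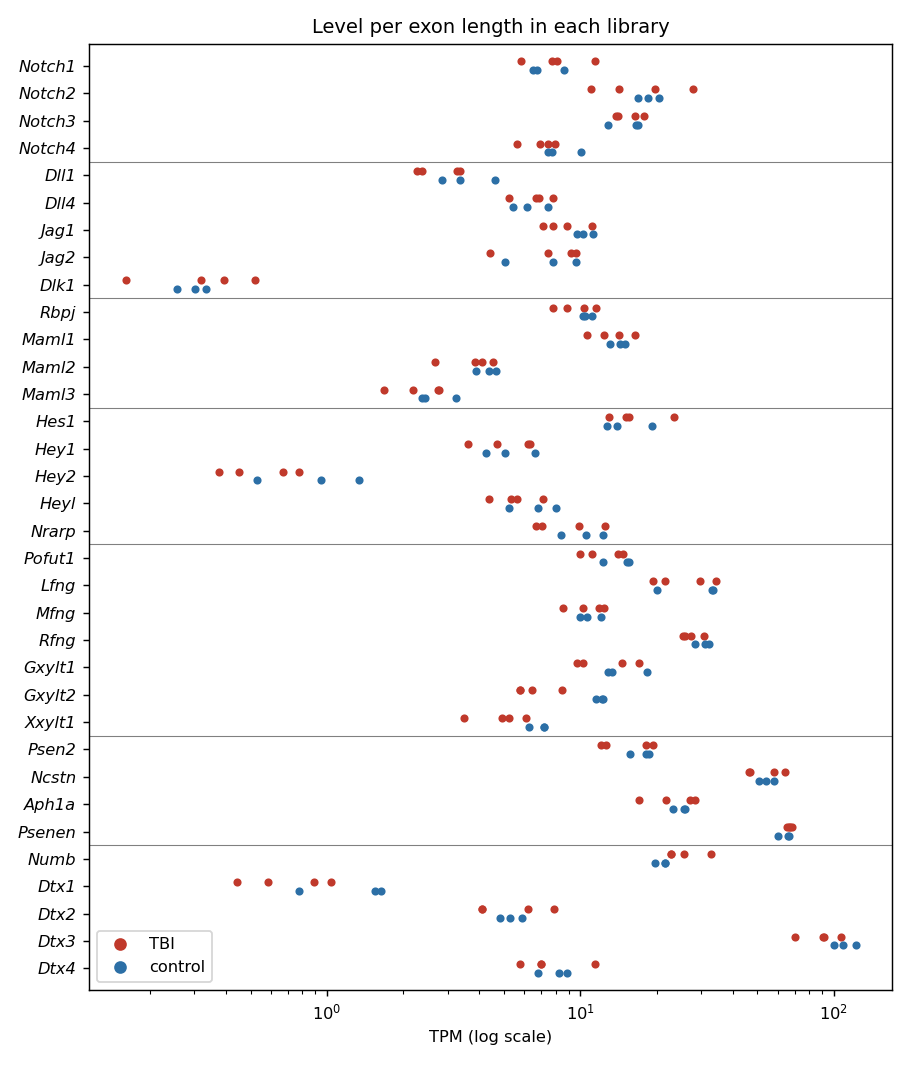
TPM of each member in each library on a log axis, with red points for TBI (above) and blue points for control (below), in blocks by role. Dtx3 (mean 98.6 TPM), Psenen (65.8 TPM) and Ncstn (54.1 TPM) are the highest of the 34 and Dlk1 (0.326 TPM) the lowest.

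Among the ligands, none had groups apart. Dll1 had an estimate of −0.31 ± 0.28 (SE), Jag1 of −0.18 ± 0.21, Dll4 of 0.14 ± 0.24 and Jag2 of 0.13 ± 0.37. Jag1 measured 15.3, 17.8, 27.3 and 17.8 CPM in TBI 1 to 4, against 19.3, 22.1 and 25.2 CPM in controls 1 to 3. Jag2 spread most among the 4 canonical ligands, with 10.3, 17.9, 28.4 and 27.4 CPM in TBI 1 to 4, against 12, 24.8 and 20.9 CPM in controls 1 to 3. All 5 ligand genes were lowest in TBI 1. Dlk1, a ligand-like protein also known as preadipocyte factor that lacks the domain needed to activate Notch, had 7 to 24 counts in TBI libraries and 10 to 14 counts in control libraries, and its estimate of 0.29 ± 0.46 rests on these few counts. Per exon length Jag1 averaged 9.44 TPM, Jag2 7.59 TPM, Dll4 6.53 TPM, Dll1 3.15 TPM and Dlk1 0.326 TPM. Jag1, Jag2 and Dll4 overlapped in range. Within every library Jag1 stood above Dll4, while the place of Jag2 varied by library.

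Members with known roles in vessels are set here beside the vessel markers by library. Dll4, the ligand of arterial and sprouting endothelial cells, measured 6.78, 9.15, 12.7 and 11.1 CPM in TBI 1 to 4, against 7.18, 10.6 and 9.18 CPM in controls 1 to 3. The mean of the 16 endothelial markers, 5 of them lower in estimate, was 4.84, 5.04, 5.39 and 5.03 log2 CPM in TBI 1 to 4, against 4.87, 5.19 and 5.04 log2 CPM in controls 1 to 3. TBI 3 was the highest and TBI 1 the lowest library in both. The 9 markers of mural cells, the smooth muscle cells and pericytes of vessel walls, had 3 lower estimates and averaged 4.98, 5.24, 6.34 and 5.55 log2 CPM in TBI 1 to 4, against 4.98, 5.46 and 5.65 log2 CPM in controls 1 to 3. Notch3 was likewise highest in TBI 3 (61.0 CPM), with 37.3 CPM in TBI 1 and 35.8 CPM in control 1 as its lowest values. Notch4 and Hey2 were also lowest in TBI 1, and were highest in control 2, whose endothelial mean was below that of TBI 3 alone. Notch4 measured 30.0 CPM in control 2 and 27.1 CPM in TBI 3. Heyl was highest in TBI 3 and lowest in TBI 2. These are descriptions over 7 libraries, and the part of vessel content in the members' levels was not tested; with the endothelial list mean as a covariate the Gxylt2 estimate was −0.81.

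The target genes gave no shared direction. Hes1, the general Notch target and transcriptional repressor, measured 10.6, 16.6, 13.0 and 11.3 CPM in TBI 1 to 4, against 9.70, 14.4 and 10.01 CPM in controls 1 to 3, at a log2 fold change of 0.18 ± 0.21 (SE). Hey1 stood at 0.032 ± 0.25, Heyl, a target prominent in vessel walls, at −0.18 ± 0.23, and Nrarp, a feedback inhibitor that binds the activated receptor complex, at −0.13 ± 0.29. Hey2, a repressor of arterial cells and heart, had the lowest estimate of the 5 at −0.65 ± 0.40 and rested on few counts: 16, 29, 24 and 14 in TBI 1 to 4, against 33, 36 and 18 in controls 1 to 3. Its CPM values of 0.695, 1.24, 1.30 and 0.738 in TBI libraries overlapped those of 1.49, 2.27 and 0.938 in control libraries, and with 1 library left out the estimate ran from −0.91 (without control 3) to −0.29 (without control 2). It was 0.30 with the osteoblast covariate and −1.60 with the chondrocyte covariate, so its direction depends on the fit. Per exon length Hes1 averaged 16.1 TPM, ahead of Nrarp at 9.62 TPM, Heyl at 6.07 TPM, Hey1 at 5.25 TPM and Hey2 at 0.727 TPM. The lowest Hes1 library (12.7 TPM) lay just above the highest Nrarp library (12.6 TPM). Nrarp overlapped in range with Heyl, though it stood above Heyl within every library, and Heyl overlapped with Hey1. For Nrarp, 2051 of its 2582 exonic bases are shared with Gm38287 on the other strand, which had 0 to 3 counts in any library.

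Promoter windows are shown for 2 target genes and for Lfng, itself a Notch target in the segmenting mouse embryo, because Rbpj reads the sequence GTGGGAA. The windows are the 250 bases before the RefSeq start (GRCm38.p6), 5′ to 3′ on the gene's strand. Capitals mark GTGGGAA or its reverse complement TTCCCAC, and the E-box CACGTG. The E-box is its own reverse complement and can be bound by Hey-type factors. Hey2 lies at chr10:30842784-30843033 (minus strand), Nrarp at chr2:25180508-25180757 (plus strand) and Lfng at chr5:140607091-140607340 (plus strand).
Hey2: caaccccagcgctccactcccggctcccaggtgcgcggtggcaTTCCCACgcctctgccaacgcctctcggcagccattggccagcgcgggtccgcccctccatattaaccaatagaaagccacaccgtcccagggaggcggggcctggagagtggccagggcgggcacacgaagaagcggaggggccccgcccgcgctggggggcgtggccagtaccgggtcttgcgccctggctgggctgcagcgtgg
Nrarp: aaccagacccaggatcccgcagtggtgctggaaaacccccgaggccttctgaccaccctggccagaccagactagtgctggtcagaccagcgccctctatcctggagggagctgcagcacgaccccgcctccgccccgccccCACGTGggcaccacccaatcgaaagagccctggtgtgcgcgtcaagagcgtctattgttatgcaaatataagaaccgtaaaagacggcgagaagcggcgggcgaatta
Lfng: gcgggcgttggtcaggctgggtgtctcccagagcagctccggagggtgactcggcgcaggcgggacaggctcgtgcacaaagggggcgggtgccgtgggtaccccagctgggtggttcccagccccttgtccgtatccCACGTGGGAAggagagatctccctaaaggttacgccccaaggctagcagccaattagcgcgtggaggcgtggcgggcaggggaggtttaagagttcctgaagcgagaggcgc
The Hey2 window held the reverse complement of the Rbpj motif at position −207 from the start, and the Nrarp window held an E-box at −108. The Lfng window held an E-box at −112 that runs into an Rbpj motif at −109. The Rbpj motif stood in 5.42% of all 32851 windows and in 3 of the 35 windows of members (in Psen2, Lfng and Hey2), and the E-box in 6.02% of all windows and in 3 of the 35 (in Psen2, Nrarp and Lfng). No window of Hes1, Hey1 or Heyl was in the table.

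The nuclear complex differed little. Rbpj, the DNA-binding protein on which the pathway ends, measured 49.4, 45.7, 47.6 and 42.5 CPM in TBI 1 to 4, against 48.4, 49.1 and 50.7 CPM in controls 1 to 3, at a log2 fold change of −0.093 ± 0.099 (SE). The 3 Mastermind coactivators stood at −0.038 ± 0.11 for Maml1, −0.14 ± 0.17 for Maml2 and −0.15 ± 0.17 for Maml3. All 4 estimates were below 0 under TMM, RLE and upper quartile scaling, the groups overlapped for each gene, and of the 4 differences that of Rbpj alone exceeded 1 pooled SD between libraries. Maml1 measured 30.4, 27.3, 28.8 and 25.1 CPM in TBI 1 to 4, against 28.5, 26.7 and 30.6 CPM in controls 1 to 3. Maml1 averaged 13.7 TPM, Rbpj 10.1 TPM, Maml2 4.01 TPM and Maml3 2.49 TPM. Ranges over the libraries overlapped between Maml1 and Rbpj and between Maml2 and Maml3, and not between Rbpj and Maml2. Within every library, however, Maml1 stood above Rbpj and Maml2 above Maml3.

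Gamma-secretase, the protease that frees the intracellular part of Notch, lay close to the controls in all 4 subunits measured here. Psen2, a catalytic subunit, had an estimate of −0.13 ± 0.13 (SE), Ncstn, which receives the substrate, of 0.034 ± 0.10, the scaffold Aph1a of −0.039 ± 0.12 and Psenen, which is needed for presenilin to mature, of 0.12 ± 0.14. Ncstn measured 85.8, 79.9, 78.4 and 79.2 CPM in TBI 1 to 4, against 73.8, 85.4 and 77.6 CPM in controls 1 to 3. Psenen measured 28.0, 29.3, 36.1 and 37.3 CPM in TBI 1 to 4, against 28.8, 28.3 and 32.8 CPM in controls 1 to 3, and was highest in the 3 libraries with the most muscle mRNA (TBI 3, TBI 4 and control 3); the part of muscle in it was not tested. Without TBI 3 and TBI 4, left out together after the data were seen, its estimate was −0.089. On the other strand, Ncstn shares 195 of 3975 exonic bases with Copa (3504 to 5056 counts). Aph1a shares 445 of 3450 with Car14 (154 to 623 counts). Psenen shares 230 of 1275 with Gm49396 (82 to 136 counts) and U2af1l4 (5 to 19 counts). The part of these overlaps in the measured levels was not tested.

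Numb and the deltex proteins act on the receptor after it is made. Numb, an endocytic adaptor that inhibits Notch, measured 43.1, 34.6, 37.6 and 38.2 CPM in TBI 1 to 4, against 29.0, 31.2 and 29.8 CPM in controls 1 to 3. All 4 TBI libraries lay above all 3 controls, with TBI 2 nearest to the controls. The means were 38.4 ± 3.53 CPM after TBI (SD, n = 4) and 30.0 ± 1.11 CPM in controls (SD, n = 3), a log2 fold change of 0.36 ± 0.11 (SE). With the muscle, erythroid, osteoblast and endothelial list means as covariates the estimate was 0.37, 0.43, 0.44 and 0.36. With the chondrocyte list mean, added after the data were seen, it was 0.71. The erythroid, osteoblast and chondrocyte list means separate the groups, so injury and marker level can hardly be told apart there. TBI 1 was the highest library for Numb and for the neutrophil markers, while TBI 3 was above all controls for Numb and below all controls for those markers; their part in the Numb level was not tested. The gene (ENSMUSG00000021224) lies on chromosome 12 at 83794034 to 83921934 on the minus strand, and 166 of its 3917 exonic bases are shared with Gm46367 on the other strand.

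Dtx1, a ubiquitin ligase of lymphocytes, had the lowest estimate of the 34, at −0.83 ± 0.34 (SE). It measured 1.82, 1.62, 1.30 and 1.00 CPM in TBI 1 to 4, against 2.80, 1.51 and 3.34 CPM in controls 1 to 3, from 19 to 42 counts in TBI libraries and 24 to 64 counts in control libraries. Control 2 lay below TBI 1 and TBI 2, so the groups overlapped; the estimate was −0.59 without control 3 and −0.37 once the erythroid list mean entered the fit. The 12 B-cell markers summed to 71.3 to 243 CPM in TBI libraries and 202 to 339 CPM in control libraries, with all 12 lower in estimate, and control 2 was the lowest control for them too. Among the TBI libraries the orders differed, with TBI 3 lowest for the B-cell markers and TBI 4 lowest for Dtx1; the part of B cells in the Dtx1 level was not tested. The other deltex genes stood at 0.088 ± 0.18 for Dtx2, −0.25 ± 0.15 for Dtx3 and 0.0094 ± 0.19 for Dtx4. Dtx3 had the highest level per exon length of all 34 members, at 98.6 TPM, and measured 78.0, 95.4, 99.0 and 77.2 CPM in TBI 1 to 4, against 88.1, 116.0 and 108.2 CPM in controls 1 to 3, with overlap.

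The highest libraries were spread over both groups, while the lowest were mostly TBI libraries. TBI 1 and TBI 4 were each the lowest library for 10 of the 34 members, and control 2 the highest for 10 and TBI 3 for 8. A TBI library was lowest for 28 members and a control library for 6, while each group held the highest library for 17 members, with 4 TBI libraries and 3 control libraries to choose from. The same counts were not made over all genes tested, so nothing about the members is read from them. For the target genes TBI 3 was highest in 3 of 5, and for the glycosyltransferases control 2 was highest in 5 of 7.

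**Figure D4:**
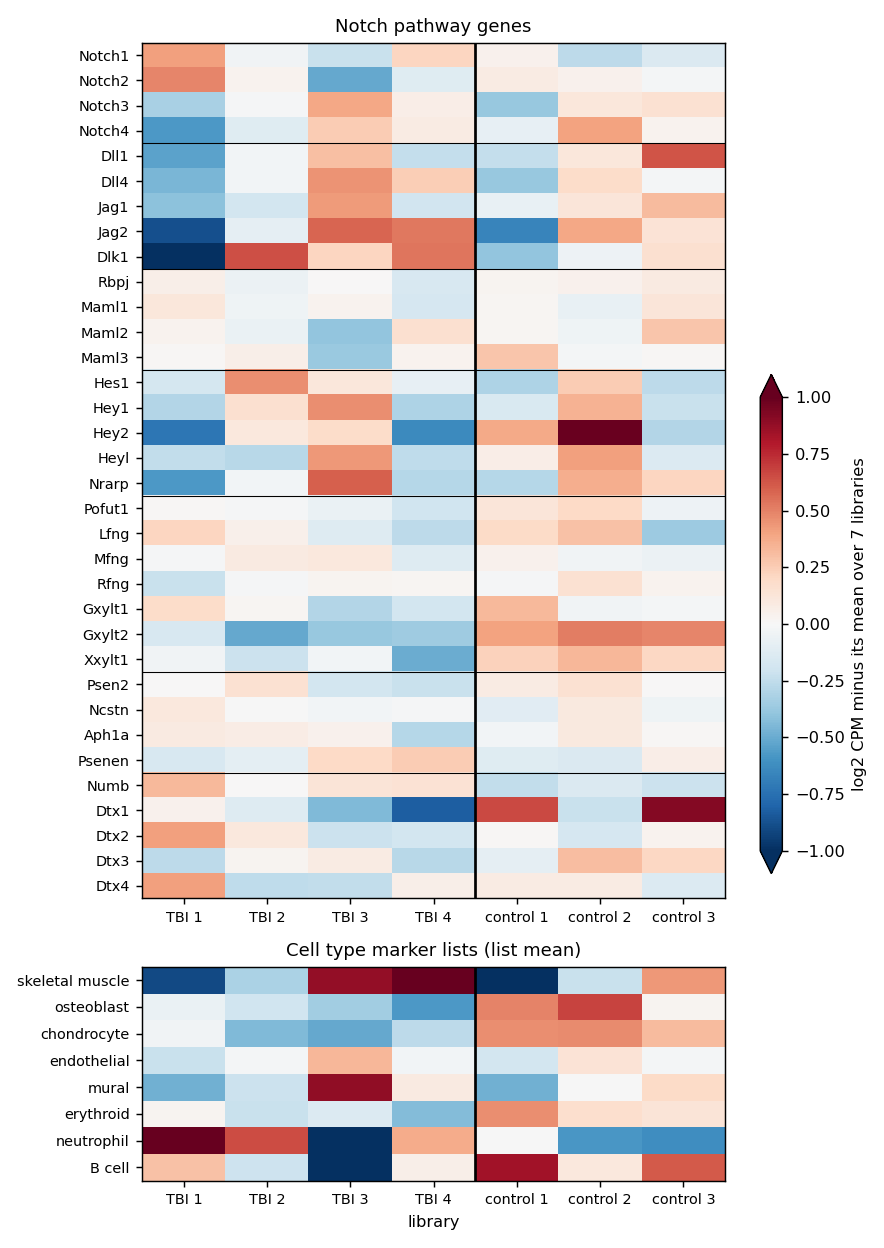
Log2 CPM of each member minus its mean over the 7 libraries, by library (TBI left of the line, control right), with the mean log2 CPM of 8 marker lists below, on one colour scale from −1 to 1. Gxylt2 and Xxylt1 are lower and Numb higher in all 4 TBI libraries, whereas ligands and targets vary by library, with TBI 1 low and TBI 3 high for most ligands.

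The rest of the pathway was read from a second list of 54 genes (other ligands, ligand ubiquitin ligases, proteases, further glycosyltransferases, receptor turnover, coactivators, corepressors and further targets), of which 48 were tested. Of these, 24 had a lower and 24 a higher estimate, with a median of −0.0014, and 0 passed an adjusted p of 0.05 in edgeR; 7 had an unadjusted p under 0.05 (6 lower, 1 higher), beside the 7.34% of all genes given above. Groups did not overlap for 7 of the 48, against 8.04% of all genes tested. The 5 lower ones were Mfap2, a protein of elastic microfibrils that can bind Notch ligands, at −0.74 ± 0.18 (SE), the cyclin gene Ccnd1 at −0.51 ± 0.13, Numbl, the relative of Numb, at −0.45 ± 0.17, Myc at −0.39 ± 0.14, and Cdkn1a, which encodes the cell cycle inhibitor p21, at −0.24 ± 0.10. The 2 higher ones were Mib1 at 0.33 ± 0.14 and Mib2 at 0.15 ± 0.099, which are 2 of the 4 listed ubiquitin ligases that act on Notch ligands. The other 2, Neurl1a at 0.53 ± 0.43 and Neurl1b at −0.053 ± 0.20, had overlapping groups. Numb and Numbl thus lay on opposite sides of the controls: Numbl averaged 14.2 ± 2.46 CPM after TBI (SD, n = 4) and 19.4 ± 2.31 CPM in controls (SD, n = 3). The enzymes that precede the xylosyltransferases by adding O-glucose, Poglut1, Poglut2 and Poglut3, had estimates of −0.060 ± 0.12, −0.23 ± 0.18 and −0.17 ± 0.12, with overlapping groups.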

How the data were processed

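Per the labels' protocols, RNA of femurs crushed in Trizol was cleaned with an RNeasy kit and made into TruSeq Stranded mRNA libraries. The authors deposited raw read counts per Ensembl gene and a table of normalized log2 values with a floor of 4.21 for 18549 genes. STAR, DESeq and GRCm38 are named in the submitters' processing notes; the way of counting reads, and its use of strand, are not stated there.

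Symbols, positions and union exon lengths came from GENCODE M21 on GRCm38, which matched 49412 of 49671 identifiers (99.5%). Counts were filtered with filterByExpr (17144 genes kept), scaled by TMM and tested with edgeR's quasi-likelihood test (edgeR 4.0.16, R 4.3.3), with Benjamini-Hochberg adjustment over all genes. Standard errors were derived from each estimate's F statistic. CPM uses TMM-scaled library sizes. TPM uses union exon lengths over all genes matched, without TMM, and serves only to compare genes. DESeq2 1.42.0 and limma 3.58.1 were alternatives. The edgeR step was also run on simulated counts, drawn independently for each gene and library. These held no differences in tissue content, and no result here rests on them. At these depths 1 count equals 0.0459 to 0.0647 CPM before TMM, and a count of 0 would allow up to 0.138 to 0.194 CPM, for counting error only. Within a group, each pair of libraries differed beyond counting noise (chi-square per degree of freedom 27.2 or more). The authors' log2 values were used as an alternative only; in them the groups of 3 members (Gxylt2, Xxylt1 and Numb) did not overlap.

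The members and lists were chosen with earlier results of these data known. All members were named, with values per library for Gxylt2, for members whose groups did not overlap or whose log2 fold change exceeded 0.5 in size, and for the highest TPM in each role; up to 10 other pathway genes with separate groups were named. Per-library values of other members, the Poglut genes and the motif GGGCGG were chosen after values were seen.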

Additional observations from a re-analysis of the deposited data

Results flagged for a closer look

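Among the 4 TBI libraries, 5 of 53 sets of values held 1 library far from the other 3 (by Dixon's 95% critical value for the gap over the range); chance flags about 1 in 20. Heyl stood at 15.4 CPM in TBI 3, against 9.41 to 9.6 CPM in the other TBI libraries and 10.4 to 15.1 CPM in controls. Maml3 stood at 7.43 CPM in TBI 3, against 9.69 to 9.96 CPM in the other TBI libraries and 9.46 to 11.6 CPM in controls. Rfng stood at 22.85 CPM in TBI 1, against 26.5 to 27.2 CPM in the other TBI libraries and 26.5 to 29.6 CPM in controls. Aph1a stood at 25.2 CPM in TBI 4, against 31.7 to 32.8 CPM in the other TBI libraries and 30.2 to 32.9 CPM in controls. Mib2 stood at 37.4 CPM in TBI 2, against 33.7 to 33.8 CPM in the other TBI libraries and 31.0 to 32.0 CPM in controls.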

How the results depend on the processing

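Gxylt2, Xxylt1, Numb and Dtx1 kept their direction in every alternative run, as did Notch1, Notch4, Dll1, Jag1, Rfng and Dtx3 (10 members in all). The other 24 members changed sign in some run. With each library left out in turn, Gxylt2 ranged from −0.89 to −0.78 and Xxylt1 from −0.49 to −0.35. Numb ranged from 0.29 to 0.39 and Dtx1 from −1.09 to −0.59. DESeq2 called 84 genes, among them Gxylt2 (−0.81, adjusted p = 0.00011; in the other count-based alternatives its adjusted p ran from 0.0642 to 0.987); edgeR and limma-voom called 0 in all alternatives. Genes at an unadjusted p under 0.05 (1259) numbered 2264 with voom quality weights, 1909 with the replicate block, 2765, 2202 and 1899 with the muscle, erythroid and endothelial covariates, 2019 without TBI 3 and TBI 4 together (added after the data were seen), and 592 to 1714 with each library left out, lowest without control 2. The median of the 34 members was −0.33 with the chondrocyte covariate, also added later, whose values separate the groups; 28 member estimates moved by more than 1 SD there, against 20 with the osteoblast and 18 with the erythroid covariate. Lower members numbered 21, and 18 (osteoblast covariate) to 27 (quality weights) over the alternatives, with 19 to 24 when 1 library was left out. With 1 library left out, 12 members took both signs, all with estimates within 0.13 of 0 over all libraries. Deviations from the group mean correlated at 0.549, −0.0277 and 0.322 between same-numbered libraries 1, 2 and 3. Between libraries of different number the correlations ran from −0.45 to 0.393. Whether same-numbered libraries form pairs was not tested. Under the replicate block Gxylt2 stood at −0.82. Causes of these changes were not tested. Dlk1, Hey2 and Dtx1 are limited by low counts.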
